A study of Homo sapiens with 4 samples.

Results

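The genes described here are 10 components of the transforming growth factor beta (TGF-beta) and bone morphogenetic protein (BMP) pathways in A549 cells, a human lung adenocarcinoma line. They are the ligands TGFB1, TGFB2 and BMP4, the receptors TGFBR1 and TGFBR2, the signal transducers SMAD2, SMAD3 and SMAD4, and the inhibitors SMAD7 and BAMBI. They were chosen by gene symbol, and all 10 of the 10 were found among the 28283 genes of the expression table. Their selection also required the same symbol in both lists of m6A peaks described below. The study compared A549 cells that carried the control vector pLKO.1 (shNC) with A549 cells in which YTHDF2, a reader protein that binds N6-methyladenosine (m6A) in mRNA, was knocked down with an shRNA (shY2-2). Knockdown was stable and lentiviral, and 1 of the shRNAs made against YTHDF2 was used here, so an effect of that shRNA on other RNAs cannot be told apart from an effect on YTHDF2. Poly(A) RNA of each line was fragmented and gave 1 input library and 1 immunoprecipitated library (IP, anti-m6A), which makes 4 libraries. With 1 library of each kind per condition no difference has a replicate check, and every comparison below is between those libraries.

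TGF-beta and BMP ligands are secreted dimers that bring type I and type II serine/threonine kinase receptors together at the cell surface. Within the TGF-beta branch the type II receptor TGFBR2 phosphorylates the type I receptor TGFBR1, which phosphorylates SMAD2 and SMAD3. These then join SMAD4, the partner shared with the BMP branch, and enter the nucleus to regulate target genes. SMAD7 blocks type I receptors and is itself a target gene of the pathway, and BAMBI is a pseudoreceptor that lacks kinase activity. In lung adenocarcinoma cells TGF-beta is best known as an inducer of epithelial-mesenchymal transition.

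RNA levels are given as FPKM, the fragments of a gene scaled to its exon length and to all mapped fragments of the input library. The log2 ratio of a gene is that of its shY2-2 FPKM over its shNC FPKM after 1 was added to both, so differences of weakly expressed genes come out smaller than they are. Genes had to reach an FPKM of 1 in either input library, which 12268 did, and a gene was called changed where its log2 ratio was above 1 or below -1. All 10 pathway components were kept. The targeted gene YTHDF2 had an FPKM of 3.56 in shNC and 1.02 in shY2-2, a log2 ratio of -1.18. All 5 epithelial markers examined had an FPKM of at least 1 in a library, and their summed FPKM was 948.4 in shNC and 622.0 in shY2-2. The summed FPKM of 6 markers of other cell types was 1.31 in shNC and 1.72 in shY2-2, and COL1A1 alone among them reached an FPKM of 1. The part of the lower epithelial sum in the results below was not tested.

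Both TGFB2 and BMP4 fell in shY2-2 and were the only changed genes of the 10, whereas TGFB1 stayed near its control level. Of all 12268 genes kept, 0.986% were called higher and 2.14% lower in shY2-2. TGFB1 (ENSG00000105329, GRCh38 chr19:41301587-41353911, - strand), the most widely produced TGF-beta ligand, had an FPKM of 30.4 in shNC and 28.2 in shY2-2. Its log2 ratio of -0.10 stands at percentile 39.1 of all genes kept. TGFB1 and TGFB2 encode ligands of the same receptor pair, and they differed in these libraries. TGFB2 (ENSG00000092969, chr1:218346235-218444619, + strand), the ligand that also uses betaglycan (TGFBR3) for efficient receptor binding, had an FPKM of 10.4 in shNC and 4.18 in shY2-2. This is a 2.49-fold lower FPKM in shY2-2 and a log2 ratio of -1.14. BMP4 (ENSG00000125378, chr14:53949736-53958761, - strand), a BMP ligand with roles in lung development, had an FPKM of 5.35 in shNC and 1.90 in shY2-2, which is 2.82-fold lower with a log2 ratio of -1.13. Among the 500 genes nearest to each in mean FPKM, TGFB2 lies at percentile 2.2 and BMP4 at percentile 1.0. With a pseudocount of 5 the log2 ratios were -0.75 for TGFB2 and -0.59 for BMP4, and neither passed the limit. In these bulk libraries fewer cells that express a gene and less of its RNA per cell cannot be told apart. FPKM is scaled per length, so the ligands can be set beside each other. TGFB2 stood at 34.3% of the TGFB1 level in shNC and at 14.8% in shY2-2, and BMP4 at 17.6% of the TGFB1 level in shNC and 6.72% in shY2-2.

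The type I receptor was the component with the highest log2 ratio, without passing the limit. TGFBR1 (ENSG00000106799, chr9:99104038-99154192, + strand) had an FPKM of 2.07 in shNC and 4.01 in shY2-2. Its log2 ratio of 0.71 is at percentile 97.0 of all genes kept and at percentile 96.2 of the 500 genes nearest in mean FPKM. TGFBR2 (ENSG00000163513, chr3:30606502-30694142, + strand), the type II receptor that binds the ligand first, was the most abundant of the 10 in shY2-2, with an FPKM of 35.8 in shNC and 40.9 in shY2-2 and a log2 ratio of 0.19. TGFBR1 thus stood at 5.78% of the TGFBR2 level in shNC and at 9.79% in shY2-2, so the type I receptor mRNA was the scarcer of the pair in both libraries.

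All 3 SMAD transducers were lower in shY2-2, and none passed the limit. SMAD3 (ENSG00000166949, chr15:67063763-67195195, + strand), which binds DNA directly, was the most abundant of the 10 genes in shNC. Its FPKM was 37.5 in shNC and 30.1 in shY2-2, a log2 ratio of -0.31. SMAD2 (ENSG00000175387, chr18:47808957-47931146, - strand), the other receptor-regulated SMAD of the TGF-beta branch, had an FPKM of 2.29 in shNC and 1.09 in shY2-2. Its log2 ratio of -0.65 is at percentile 7.1 of all genes kept, and without the pseudocount the log2 ratio of its FPKM values is -1.07. SMAD2 stood at 6.12% of the SMAD3 level in shNC and at 3.63% in shY2-2. SMAD4 (ENSG00000141646, chr18:51028394-51085045, + strand), the common partner, had an FPKM of 2.82 in shNC and 2.21 in shY2-2, a log2 ratio of -0.25. Both SMAD2 and SMAD4 thus had lower FPKM values than SMAD3 in either library. The SMAD2 reference transcript is 34626 nt long, and how much of this length entered its FPKM is not given in the sources used here, so the level of SMAD2 relative to SMAD3 is uncertain.

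The inhibitors had log2 ratios of opposite sign, and neither passed the limit. SMAD7 (ENSG00000101665, chr18:48919853-48950711, - strand), the inhibitory SMAD that TGF-beta itself induces, had an FPKM of 5.21 in shNC and 3.41 in shY2-2. Its log2 ratio was -0.49, at percentile 11.9 of all genes kept. BAMBI (ENSG00000095739, chr10:28677342-28682939, + strand), the pseudoreceptor, had an FPKM of 21.3 in shNC and 22.7 in shY2-2 and a log2 ratio of 0.09. Across the 10 genes, 3 were higher and 7 lower in shY2-2, beside 50.3% and 49.7% of all genes kept. The median log2 ratio of the 10 was -0.28, beside 0 for all genes kept, whose 2.5 and 97.5 percentiles are -0.96 and 0.74. The span between the most and the least abundant of the 10 was 18.1-fold in shNC and 37.5-fold in shY2-2.

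**Figure D1:**
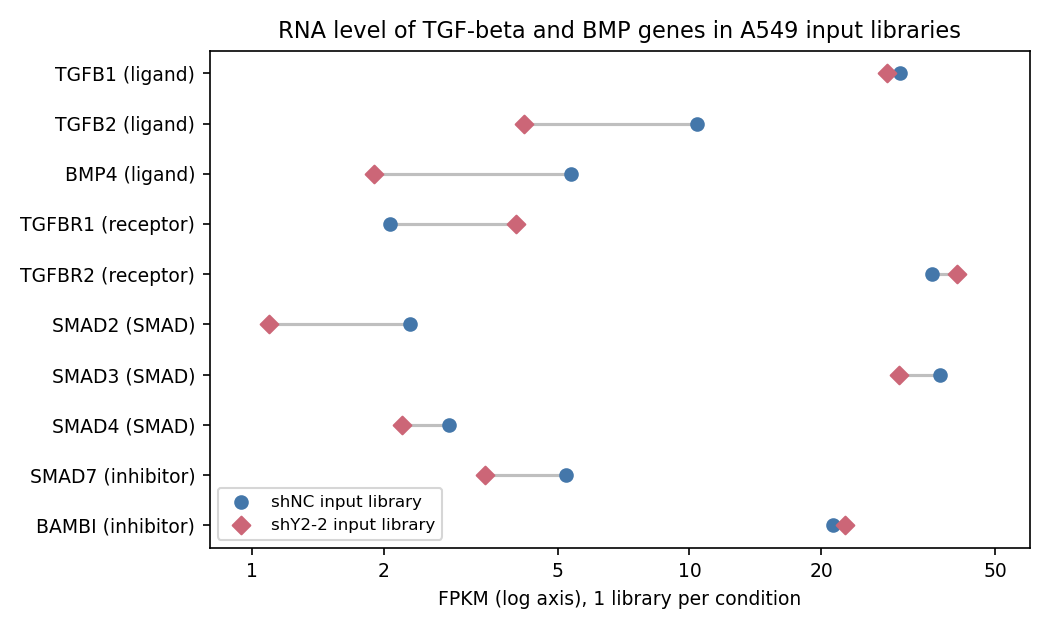
FPKM of the 10 pathway genes (log axis) in the shNC input library (circles) and the shY2-2 input library (diamonds), 1 library per condition, joined by a line for each gene. TGFB2 and BMP4 show the widest gaps to the left, TGFBR1 lies to the right of its control value, and TGFB1, TGFBR2, SMAD3 and BAMBI stay above 20 in both libraries.

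The table gives no fragment numbers. Low FPKM values of genes with 1 transcript fall most often on steps that correspond to a depth of about 20700000 fragments in shNC and 25900000 in shY2-2. These values were also measured in units of the distance from a step to the middle between steps. Only 28.0% and 26.9% of them lie within 0.05 of a whole number of units, so this depth is a rough estimate. At that depth the BMP4 values would rest on about 214 and 95 fragments and the TGFB2 values on about 1264 and 636. Such numbers bear on counting error only and leave the spread between cultures unknown.

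The other genes of both pathways were examined as a list of 78 genes by role, of which 77 were found in the expression table and CDKN2B was not analysed here. Of the 77, 58 were kept and 19 had an FPKM under 1 in both libraries. Among the 58 kept, 18 were higher and 40 lower in shY2-2, with a median log2 ratio of -0.29. No gene rose past the limit and 7 fell, beside 2.14% of all genes called lower. The 48 genes of the list other than the 10 gave 15 higher, 33 lower and 5 past the limit, with a median of -0.29. The KEGG TGF-beta annotation of the deposited table, which was tried after the data had been seen and of which 56 genes were kept, gave 25 higher, 31 lower, 4 past the limit and a median of -0.03, so the lower median was not found with that annotation.

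Of 9 genes kept in the ligand role, including the protease BMP1 (log2 ratio -0.86), which is no ligand, 3 fell. The third beside TGFB2 and BMP4 was INHBB, the activin beta B subunit, with an FPKM of 45.6 in shNC and 21.3 in shY2-2 and a log2 ratio of -1.06. The 8 genes listed for the storage and release of latent TGF-beta were all lower in shY2-2, beside 49.7% of all genes kept. Their median was -0.45, although LTBP1, a latent TGF-beta binding protein, differed only from 3.92 to 3.91 FPKM. LTBP2, with a log2 ratio of -0.83, bears the family name but does not bind latent TGF-beta. Of the 8, the integrin subunit ITGAV, which takes part in freeing active TGF-beta, fell from an FPKM of 26.9 to 12.7 with a log2 ratio of -1.03. Of 8 receptors kept, 4 were higher and 4 lower, with a median of 0.09. ACVR1, a type I receptor of the BMP branch, had the second highest ratio of the list after TGFBR1, with an FPKM of 4.31 in shNC and 7.22 in shY2-2 and a log2 ratio of 0.63. The ratios of the other type I receptors kept were 0.25 for ACVR1B, -0.02 for BMPR1A and -0.84 for BMPR1B, so 3 of the 5 type I receptors kept were higher and 2 lower. The type II receptor BMPR2 had a log2 ratio of -0.85. The co-receptor TGFBR3, which presents TGFB2, had an FPKM of 2.60 in shNC and 0.820 in shY2-2 and a log2 ratio of -0.99, just inside the limit.

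Of 10 TGF-beta target genes kept, 7 were lower and 3 higher in shY2-2, with a median log2 ratio of -0.76. Among those counted as higher, COL4A1, a basement membrane collagen chain, had an FPKM of 18.8 in both libraries. Those that fell were TGM2, a transglutaminase of the extracellular matrix, and CTGF, a matricellular growth factor. TGM2 had an FPKM of 26.9 in shNC and 11.4 in shY2-2, a log2 ratio of -1.16. CTGF had an FPKM of 4.43 in shNC and 1.66 in shY2-2, a log2 ratio of -1.03. COL1A1, a fibrillar collagen chain, was the highest target gene with an FPKM of 0.834 in shNC and 1.64 in shY2-2 and a log2 ratio of 0.52. The 4 BMP target genes kept, ID1 to ID4, gave log2 ratios of 0.43, -0.42, -0.02 and -0.32 in that order, with no call. Of 13 inhibitors kept, TGIF2, a SMAD corepressor, fell from an FPKM of 2.11 to 0.250 with a log2 ratio of -1.31, and 308 nt of its exons are shared with the readthrough gene TGIF2-RAB5IF, so its value is uncertain. All of these genes also act in other pathways, and whether their levels follow signalling was not tested.

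**Figure D2:**
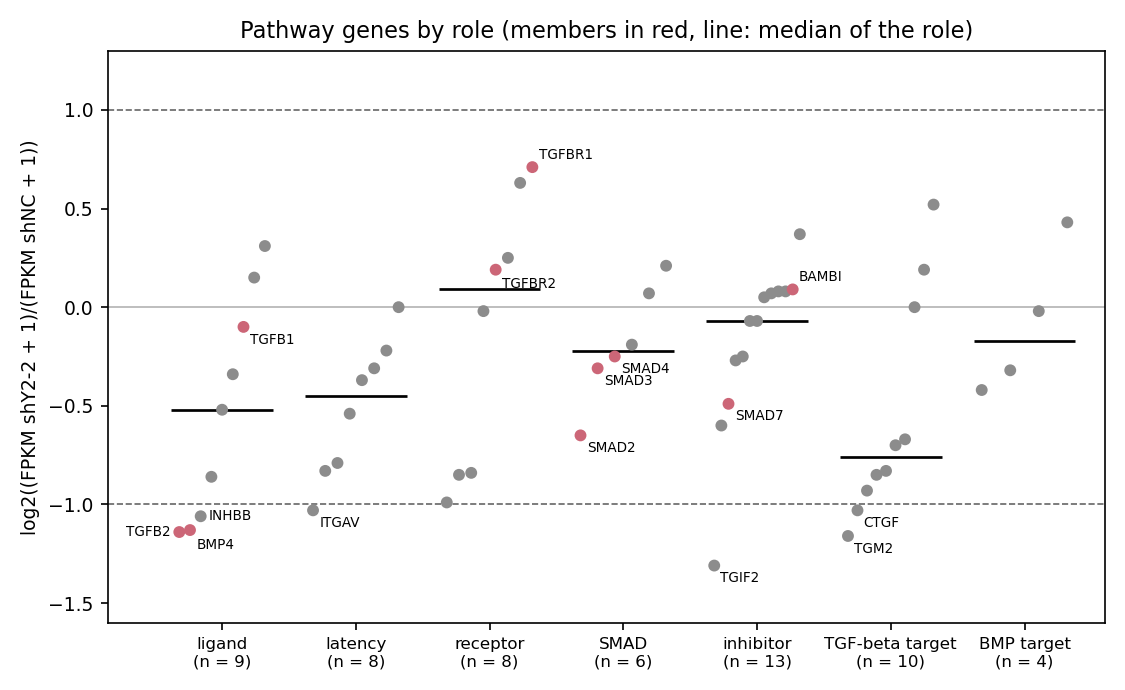
log2((FPKM shY2-2 + 1)/(FPKM shNC + 1)) of the 58 pathway genes kept, by role, with the 10 genes described here in red, the other genes in grey, the median of each role as a black line and the limits of 1 and -1 as dashed lines. No gene lies above 1, and TGFB2, BMP4, INHBB, ITGAV, TGIF2, TGM2 and CTGF lie below -1. The ligand role includes the protease BMP1, and the SMAD role includes ZFYVE9, which is not a SMAD.

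m6A peaks were called in each condition from 1 IP library against 1 input library. Each peak carries a deposited fold enrichment, the IP over input ratio, and a deposited false discovery rate (FDR), and these rest on reads of those 2 libraries. The 10 genes held 29 of 31057 distinct peaks in shNC and 30 of 27344 in shY2-2. Every one of them had a peak in both lists, but their selection required this, so it is no result. Of all genes kept 72.8% had a peak in both. With an FDR of at most 0.05 in both lists, 8 of the 10 remained, beside 51.1% of all genes kept, for which no peak was required. TGFB2 and BMP4, the genes that fell, were those without a peak at that FDR in shY2-2. Peaks were counted as overlapping where their exonic blocks shared at least 1 base on the same strand. In shNC 17 of the 29 peaks were met by a shY2-2 peak, beside 55.9% of all shNC peaks, and in shY2-2 21 of the 30 were met by a shNC peak, beside 65.4%. The gene listed for the meeting peak could differ, and 1 of the 21, listed for TGFB1, was met over 40 nt by a peak listed for B9D2 alone. The peaks covered 10220 nt in shNC and 10522 nt in shY2-2, and 5163 nt were covered in both.

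The deposited annotation placed peaks of the 10 genes in 3' UTRs about as often as all peaks. Per the deposited annotation 58.6% of them in shNC (95% Wilson interval 40.7% to 74.5%, 17 of 29) and 63.3% in shY2-2 (45.5% to 78.1%, 19 of 30) were in 3' UTRs, beside 59.1% and 59.5% of all peaks, and the intervals cover the counting of peaks only. Of these peaks, 2 in shNC (listed for TGFB1 and BMP4) and 2 in shY2-2 (TGFB1 and SMAD4) have no base in the 3' UTR of the reference transcript, so the deposited locations and the positions below differ in places. On the GENCODE release 44 reference transcripts a peak crossed the stop codon of TGFBR1, TGFBR2, SMAD2, SMAD4 and BAMBI in both lists and that of SMAD3 in shNC, whose shY2-2 peak begins 13 nt after it. A peak crossed the start codon of SMAD7 in both lists and that of BMP4 in shNC. The median fold enrichment of the peaks was 2.08 in shNC and 1.94 in shY2-2, beside 2.17 and 2.26 for all peaks.

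**Figure D3:**
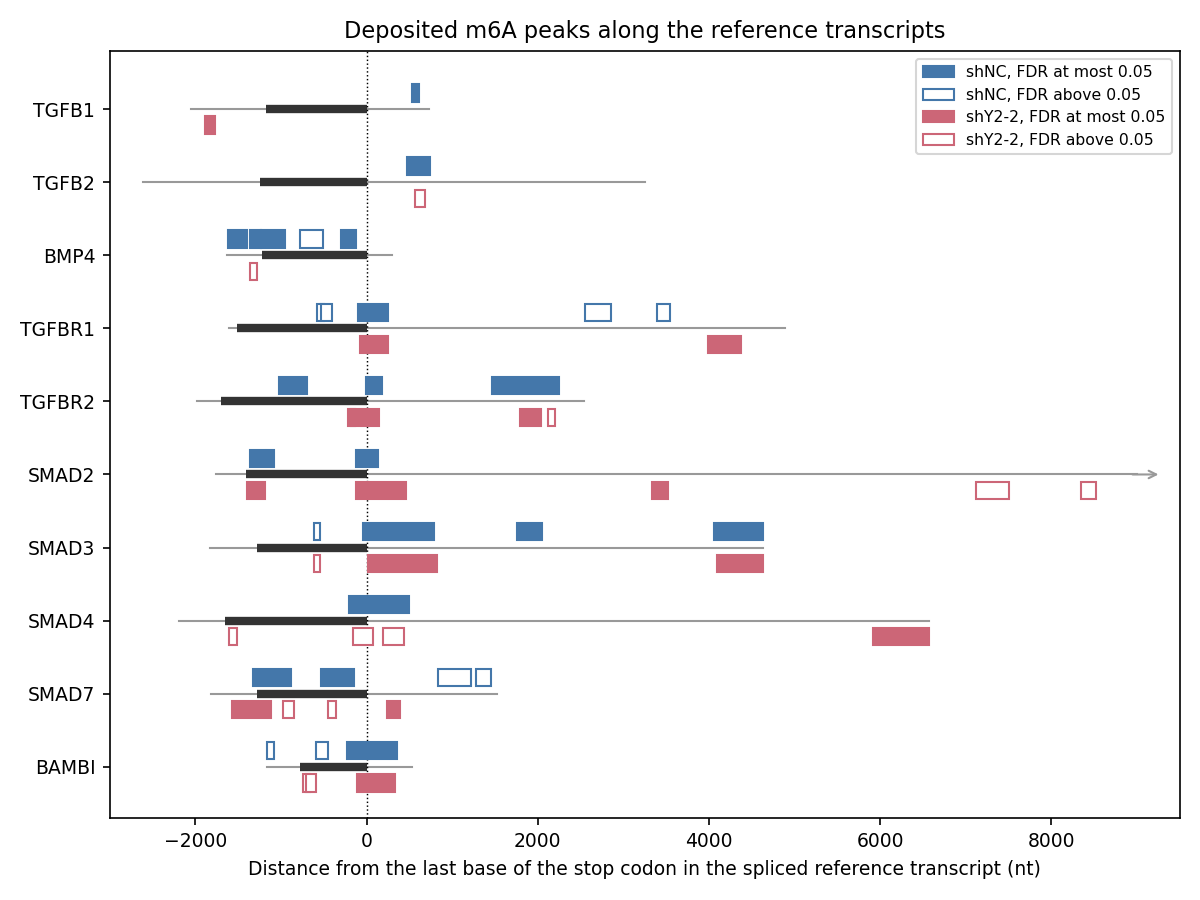
Deposited m6A peaks of the 10 genes along their reference transcripts, as distance from the last base of the stop codon (nt, spliced), with shNC peaks above and shY2-2 peaks below each transcript, filled where the FDR is at most 0.05. Thick lines are coding sequence and thin lines UTRs, the SMAD2 3' UTR runs on past the arrow, narrow peaks are widened to be visible, and 5 peaks that lie outside the reference transcripts are not drawn. Peaks stand over the stop codon in TGFBR1, TGFBR2, SMAD2, SMAD4 and BAMBI in both lists. SMAD2, SMAD4, TGFBR1 and SMAD7 have 3' UTR peaks in shY2-2 alone, not all of them filled. TGFB1, TGFBR1, SMAD3 and SMAD7 have 3' UTR peaks in shNC alone.

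GGAC, the core most often found at methylated adenosines, was searched in the bases shared by overlapping peaks, on the strand of the gene. It was present in 13 of 20 shared parts of these genes (65.0%, median length 195 nt), beside 55.7% of 21711 shared parts of all genes (median length 211 nt). For each gene with GGAC in its reference transcript, the shared part with the lowest FDR values was taken among those that hold GGAC. The match nearest the middle of that part is given here, a stretch covered by a peak with and without the knockdown. It is printed as it reads in the GRCh38 genome, 5' to 3' on the strand of the gene, with GGAC in capitals.
BAMBI (chr10:28682451-28682470, + strand): gttctgctGGACaggagcac
TGFBR1 (chr9:99149458-99149477, + strand): atttctttGGACccaggaaa
TGFBR2 (chr3:30693472-30693491, + strand): ttagagagGGACtggtagtg
SMAD2 (chr18:47841873-47841892, - strand): cagtggttGGACaaagtatt
SMAD3 (chr15:67190899-67190918, + strand): tctgtctaGGACtgcagtgt
SMAD4 (chr18:51078328-51078347, + strand): aaggctggGGACcggattac
SMAD7 (chr18:48950348-48950367, - strand): ggcggcgaGGACgaggagga
The matches of BAMBI, TGFBR1, SMAD3 and TGFBR2 lie in the 3' UTR, with the adenosine 60, 163, 373 and 1883 nt after the stop codon. Those of SMAD2, SMAD4 and SMAD7 lie in coding sequence, in exons 11, 12 and 1. Shared parts of like length, within 10%, held GGAC in 79.7% of cases for BAMBI, 71.4% for TGFBR1, 62.8% for TGFBR2, 72.9% for SMAD2, 92.0% for SMAD3, 62.8% for SMAD4 and 57.6% for SMAD7, so a match of this kind is common, and it does not mark a methylated base. The shared parts of TGFB2 and BMP4, of 121 nt each, held no GGAC, and of shared parts of like length 35.6% held it. Absence was not particular to them. Shared parts of SMAD2 (121 nt), SMAD4 (240 nt), TGFBR2 (61 nt, and 151 nt at the stop codon) and BAMBI (1 nt) also held none.

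Among peaks that could be followed between the lists, BAMBI had the highest ratio of enrichment in shY2-2 over shNC. Its peak over the stop codon and 3' UTR had a fold enrichment of 2.44 in shNC (FDR 2.51e-21) and 3.92 in shY2-2 (FDR 3.16e-50), while the FPKM of BAMBI was 21.3 and 22.7. The peak was 594 nt long in shNC and 445 nt in shY2-2, so the folds cover unlike stretches, and lengths also differ in other pairs. The log2 ratio of 0.68 between the folds is at percentile 92.1 of the 12294 pairs of peaks that met only each other. The stop codon peak of TGFBR1, which holds the GGAC match given for it, was lower in shY2-2, with a fold of 2.70 in shNC (FDR 8.13e-05) and 1.93 in shY2-2 (FDR 0.00123). Its log2 ratio of -0.48 is at percentile 18.1. The peak at the stop codon of SMAD3 had a fold of 2.56 in shNC and 1.96 in shY2-2, and the one at the end of its 3' UTR a fold of 2.31 in shNC and 2.04 in shY2-2, with FDR values of at most 5.01e-18 in all 4 cases. The stop codon peak of SMAD2 had a fold of 2.08 in shNC and 2.40 in shY2-2. Peaks with low FDR values thus had higher folds in shY2-2 in some of these genes and lower folds in others.

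In shY2-2 the FDR values of the peaks of TGFB2 and BMP4 were higher, as were those of some peaks of genes that were not called. The single TGFB2 peak, 472 to 742 nt after the stop codon in shNC, had a fold of 1.84 (FDR 0.00302) there and 1.61 (FDR 0.321) in shY2-2, where it covered 121 nt of it. BMP4 had 4 peaks in shNC and 1 in shY2-2, with a fold of 4.45 (FDR 1.12e-05) around the start codon in shNC and 5.20 (FDR 0.199) for the shY2-2 peak that shares 121 nt with it. Among genes that were not called, the stop codon peak of SMAD4 had a fold of 2.86 (FDR 0.000155) in shNC, and the 2 shY2-2 peaks that met it had folds of 1.52 (FDR 0.257) and 1.71 (FDR 0.346). A coding-sequence peak of SMAD7 had a fold of 2.54 (FDR 5.62e-06) in shNC and 1.52 (FDR 0.193) in shY2-2, and a SMAD2 peak had FDR values of 0.0209 and 0.191. The input FPKM of these 5 genes was lower in shY2-2. That of TGFBR2 was higher, yet its shNC peak 1465 to 2243 nt after the stop codon had an FDR of 4.79e-05. The 2 shY2-2 peaks that met it had 0.0117 and 0.412, while its stop codon peak had 0.00479 in shNC and 0.000302 in shY2-2. TGFBR1, also higher, had 8.13e-05 and 0.00123 at its stop codon. SMAD3, with a lower FPKM, had 5.01e-31 and 6.31e-33 there. The part of the input level in these peak calls was not tested. In all, 14 pairs of peaks in 9 of the genes met only each other, of which 5 had a higher and 8 a lower fold in shY2-2, beside 43.2% higher and 55.9% lower among all pairs. The median log2 ratio was -0.15, beside -0.06 for all pairs. Without the pair listed for TGFB1, which has no base in a TGFB1 exon, and 1 BAMBI pair that shares 1 nt, 12 pairs remained, of which 5 were higher and 7 lower, with a median of -0.15. None of the 14 was past 2-fold, beside 4.41% of all pairs higher and 5.44% lower.

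**Figure D4:**
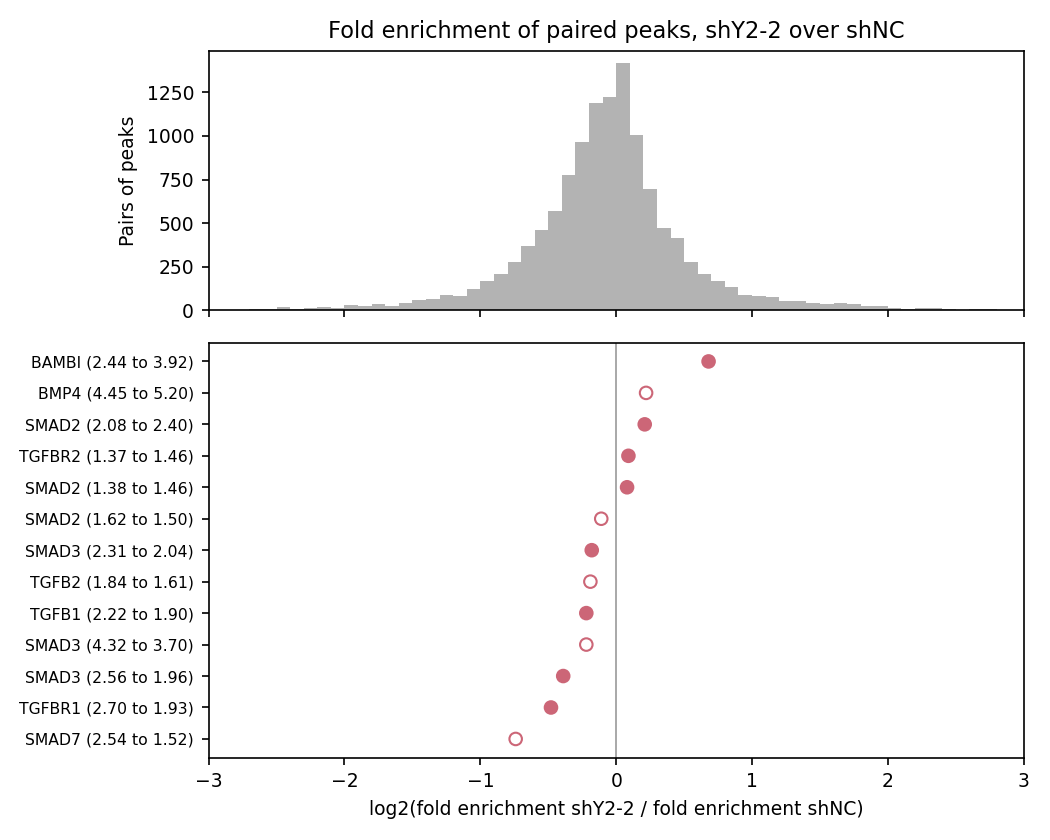
Top, the log2 ratio of fold enrichment, shY2-2 over shNC, for pairs of peaks that met only each other (12294 in all, those beyond the axis not shown). Bottom, the same ratio for the pairs of the 10 genes, with the folds in shNC and shY2-2 beside each gene, filled where both FDR values are at most 0.05 and without 1 BAMBI pair that shares 1 nt. BAMBI lies farthest right at 0.68 and SMAD7 farthest left at -0.74.

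Some peaks stood in 1 list alone. SMAD2 had 3 peaks in shNC and 6 in shY2-2, SMAD4 had 1 and 4, and TGFB1 had 2 and 3, beside 23.9% of all genes with peaks in both lists that had more peaks in shY2-2. BMP4, TGFBR1 with 4 and 2, and BAMBI with 3 and 2 had fewer, beside 38.8%. At an FDR of at most 0.05 the counts in shNC and shY2-2 were 3 and 3 for SMAD2, 1 and 1 for SMAD4 and 2 and 3 for TGFB1. They were 3 and 0 for BMP4, 1 and 2 for TGFBR1 and 1 and 1 for BAMBI. Most of these differences thus depend on weaker calls, and some peaks listed for TGFB1 lie outside its exons (below). The highest fold of any peak of the 10 genes was that of a shY2-2 peak in the 3' UTR of SMAD2 (chr18:47838307-47838487), 3340 to 3520 nt after the stop codon, with a fold of 17.3 (FDR 0.00191) at percentile 99.2 of its list. A shY2-2 peak at the end of the SMAD4 3' UTR (chr18:51084386-51085045) had a fold of 11.6 (FDR 0.0427). TGFBR1 had a shY2-2 peak 3991 to 4379 nt after the stop codon with a fold of 2.31 (FDR 0.0234), and its 2 shNC peaks in the distal 3' UTR had FDR values of 0.183 and 0.229. SMAD7 had a shY2-2 peak 239 to 388 nt after the stop codon with a fold of 1.86 (FDR 0.00955). Its shNC peaks in the 3' UTR, elsewhere, had FDR values of 0.0813 and 0.196. SMAD2 and SMAD4 had input FPKM values of 1.09 and 2.21 in shY2-2, and at such levels a high fold can stand on few input reads, whose number is not in the lists. Of the peaks not met in the other list, 5 of 12 in shNC and 5 of 9 in shY2-2 had an FDR of at most 0.05, beside 31.2% and 19.7% of all such peaks. Of the peaks that were met, 15 of 17 in shNC and 11 of 21 in shY2-2 did, beside 76.3% and 69.2%.

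The lists name a gene for each peak, and for 4 peaks this gene has no exon in GENCODE release 44 where the peak lies. The peak listed for TGFB1 in both conditions (chr19:41323988-41324764 in shNC) had a fold of 2.22 in shNC and 1.90 in shY2-2 and lies in the last exon of CCDC97, which is transcribed from the opposite strand and had an FPKM of 22.9 in shNC and 26.9 in shY2-2. A shY2-2 peak listed for TGFB1 with a fold of 6.94 (FDR 0.0427) shares its bases mainly with exons of TMEM91. A shY2-2 peak listed for SMAD3 with a fold of 8.09 (FDR 0.308) lies in exons of an antisense lncRNA, ENSG00000259347. From which gene those reads came was not tested. Counting only peaks in a gene's own exons, 9 of the 10 genes had overlapping peaks in the lists, beside 64.5% of all genes kept with overlapping peaks however placed. The exception was TGFB1, whose remaining peaks were 1 in the 3' UTR in shNC and 1 in the 5' UTR in shY2-2. A peak in both lists was required of the 10 genes but not of all genes kept, so these shares are not alike. Without TGFB1, GGAC was present in 12 of 19 shared parts (63.2%).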

How the data were processed

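m6A-seq and RNA-seq libraries of A549 cells were grouped by their labels, 1 input and 1 IP library for shNC and for shY2-2. The authors trimmed reads with fastp, mapped them to GRCh38 with HISAT2 and computed the deposited FPKM values per gene from the input libraries with StringTie. Libraries were strand-specific. The authors called peaks in each condition with exomePeak, and ChIPseeker served for annotation. For each peak the deposited lists hold a p-value, log10 scores of the p-value and FDR, and a fold enrichment as a linear ratio of IP over input, and the largest deposited p-value is 0.049. Tool versions and the limit for peak calls are not given in the sources used here. The strand of a peak is that of the gene listed for it. Both FPKM columns were used, and 0 were left over.

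FPKM values are not counts, so no count test was run, and with 1 library per group no test was run at all. The pseudocount was 1 and the minimum FPKM 1. Single genes were placed among the 500 genes nearest in mean FPKM. Peaks at the same position were counted 1 time, and pairs are peaks that overlap only each other. Positions in transcripts refer to the transcript that GENCODE release 44 marks as canonical. SMAD2 has a reference transcript of 34626 nt that is 94.9% 3' UTR, so fragment numbers computed from this length are not given for it.

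Named are the 10 genes, YTHDF2 and, of the pathway list, each gene past the limit and the 3 highest and 3 lowest. BMP1, LTBP2 and ZFYVE9 are named because their place in the list is inexact. TGFBR3, LTBP1, ACVR1B, BMPR1A, BMPR1B, BMPR2, COL4A1 and the ID genes were picked with their values in view. So were MYO5B, RPL17-C18orf32 and genes that share sequence with a named gene. The 10 genes, the pathway list and the markers were chosen with earlier results of these data known. The alternatives tried were other pseudocounts, FPKM filters, centring, a 1.5-fold limit, stricter FDR and fold limits for peaks, and the KEGG list, which was added after the data were seen. Simulated data of the shY2-2 over shNC comparison were used to test the log2 ratio with its limit and the overlap of peaks. Of 200 of 12268 genes changed 4-fold, 177 passed the limit, among them 91 of 91 with a mean FPKM of at least 5, and 0 unchanged genes did. The unchanged genes were simulated with much less spread than the real libraries show. The 0 was therefore fixed by that setting and tests the computation only, not how often genes pass the limit falsely in these data. Overlaps were right for 3600 of 3600 pairs of simulated peaks. Python 3.11.15, NumPy 2.4.6, pandas 2.3.3, SciPy 1.17.1 and matplotlib 3.10.9 were used.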

Additional observations from a re-analysis of the deposited data

How the results depend on the processing

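Of 102 values recomputed under alternatives, 99 of them planned and 3 added after the data were seen, 71 kept their direction and side of the limit or stayed within 1.5 times the reported count, 28 moved, 2 became weaker and 1 stronger, and no direction was reversed. With a pseudocount of 0.1, 315 genes were above 1 and 602 below -1, with a pseudocount of 5, 43 and 60, and with a limit of 1.5-fold, 660 and 1094. Of the 10 genes 0 passed with a pseudocount of 5, where TGFB2 gave -0.75 and BMP4 -0.59, and 4 with the limit of 1.5-fold. SMAD2 just passed the limit of -1 with a pseudocount of 0.1, which made it 3 of the 10. Of the pathway list 14 genes were below the limit with a pseudocount of 0.1, 0 with one of 5, and 20 with the limit of 1.5-fold, where 2 were above it. Its median was -0.18 with a pseudocount of 5 and -0.17 with no filter on FPKM. With the KEGG list 4 genes fell and the median was -0.03. These counts and medians thus depend on the pseudocount, the filter, the limit or the list used, and why they moved was not tested.

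For peaks, an FDR of at most 0.001 left 6 of the 10 genes in both lists. In shNC 12 peaks were left at that FDR and 15 with a fold of at least 2. In shY2-2 16 peaks were left at an FDR of at most 0.05, 8 at 0.001 and 13 with a fold of at least 2. Peaks met in the other list numbered 10, 6 and 6 in shNC and 11, 6 and 6 in shY2-2 under those limits in that order. With an FPKM of at least 5 required, SMAD2, SMAD4 and TGFBR1 were not kept and gave no value. No paired analysis was possible because each condition has 1 library of each kind and no result comes from a test. No replicate could be left out for the same reason. Depth is known only roughly for the input libraries and is unknown for the reads behind a peak, and of the 10 genes BMP4 had the fewest estimated fragments.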

Other observations

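SMAD2, SMAD7 and SMAD4 lie within 3.28 Mb of chromosome 18 (GRCh38 chr18:47808957-51085045), and all 3 were lower in shY2-2. Of 15 other genes kept that lie between SMAD2 and SMAD4, 11 were lower in shY2-2, beside 49.7% of all genes kept, and none was below -1. These neighbours include small RNA genes and a readthrough gene, so they are not 15 separate mRNAs. Their log2 ratios ran from -0.59 to 0.47 with a median of -0.12, and the 164 genes kept on chromosome 18 had a median of -0.09. With the pseudocount of 1 the log2 ratio of SMAD2, -0.65, is lower than that of any of the 15 neighbours. Next are RPL17-C18orf32 at -0.59 and MYO5B at -0.58. RPL17-C18orf32 is a readthrough gene of RPL17, at 0.35, and C18orf32, at -0.12, so its value is uncertain. MYO5B had an FPKM of 1.68 in shNC and 0.8 in shY2-2, where the pseudocount weighs more, so the rank of SMAD2 depends on the pseudocount. The ratios of SMAD7, -0.49, and SMAD4, -0.25, lie within the range of the neighbours. The number of gene copies in these cells was not tested.

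TGFB2 shares exons with an antisense lncRNA, TGFB2-AS1, over 701 nt, and with a transcript of the same strand, TGFB2-OT1, over 1371 nt. The FPKM of TGFB2-AS1 was 2.17 in shNC and 1.13 in shY2-2, a log2 ratio of -0.57, and that of TGFB2-OT1 was 0.126 and 0.0961. The antisense RNA was thus lower in shY2-2 together with TGFB2. The peak of TGFB2 does not share bases with either.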
